A study of Homo sapiens with 12 samples.

Results

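This account follows 42 genes that build and run the lysosome and the autophagy pathway, taken by gene name from the 58735 genes of a polyadenylated RNA sequencing study of 2 human anaplastic thyroid carcinoma cell lines. Gene coordinates are those of the deposited tables, on GRCh38. The 42 members fall into 17 hydrolases and their soluble helpers, 5 membrane proteins, 7 proton pump genes, 3 MiT/TFE transcription factors and 10 autophagy genes. KHM-5M cells, labelled BRAF V600E and grown in RPMI-1640, and TTA-1 cells, labelled BRAF wild type and grown in DMEM, were each given 1 µM GDC-0994 (ravoxertinib), a small molecule that inhibits the ERK kinases, or the vehicle DMSO. Treatment lasted 24 hours and each of the 4 groups has 3 libraries: KHM-5M with GDC-0994, KHM-5M with DMSO, TTA-1 with GDC-0994 and TTA-1 with DMSO. Both lines were kept in 10% fetal bovine serum. With 1 line of each BRAF genotype, genotype, medium and line cannot be told apart. The labels do not say whether replicates came from separate cultures, so p-values measure the spread between these libraries, which may be technical.

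Total counts per library ranged from 14952970 to 18389915. All 42 members passed the filter on low counts, as did 16218 genes in all. Of the thyroid follicular markers, TG and SLC5A5 averaged below 1 CPM (counts scaled to library size) in every group, while PAX8 averaged 120.2 CPM in KHM-5M with GDC-0994, 210.2 CPM in KHM-5M with DMSO, 3.65 CPM in TTA-1 with GDC-0994 and 3.59 CPM in TTA-1 with DMSO; its part in the results was not tested. Summed markers of leukocytes and macrophages, which are rich in lysosomes, reached at most 5.64 CPM in any library, with PTPRC at a mean of 0.0896 CPM or less. Most of the KHM-5M sums was CSF1R and CD14. CSF1R averaged 1.12 CPM in KHM-5M with GDC-0994, 3.12 CPM in KHM-5M with DMSO and 0.109 CPM in TTA-1 with DMSO. CD14 averaged 2.03, 2.00 and 0.108 CPM in the same groups. TTA-1 DMSO replicate 2 stood apart from the replicates of its group. Its counts differed from those of replicate 1 by a chi-square of 34.6 per degree of freedom, and from those of replicate 3 by 16.7, against 2.35 to 13.0 for the replicate pairs without it. Across genes, its deviations had a correlation with GC content of -0.57, against 0.58 for TTA-1 DMSO replicate 1. The TTA-1 results are therefore given with and without it. In KHM-5M the same correlation was 0.44 in GDC-0994 replicate 1 and -0.41 in GDC-0994 replicate 3. The share of counts on mitochondrial genes was 3.90%, 3.91% and 4.32% in the KHM-5M GDC-0994 libraries, against 3.09%, 2.88% and 3.31% in the KHM-5M DMSO libraries, with no overlap; in TTA-1 it was 4.89%, 4.55% and 4.05% with GDC-0994, against 4.14%, 4.36% and 4.502% with DMSO, which overlapped. Summed markers of epithelial cells were 2684 to 2968 CPM in KHM-5M with GDC-0994 and 2015 to 2059 CPM in KHM-5M with DMSO. In TTA-1 they were 1921 to 2047 CPM with GDC-0994 and 1703 to 2476 CPM with DMSO. Most of each sum was KRT8 and KRT18. In KHM-5M KRT8 averaged 2333 CPM with GDC-0994 and 1537 CPM with DMSO, and KRT18 472 and 490 CPM. EPCAM, CDH1 and KRT19 averaged 5.69 CPM or less in every group. The part of these measures in the results was not tested.

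Lysosomes are acidic organelles in which hydrolases break down proteins, glycans, lipids and glycogen that arrive by endocytosis or by autophagy. A vacuolar ATPase pumps protons inward, heavily glycosylated membrane proteins line the organelle, and autophagosomes built by the ATG and ULK proteins deliver cytoplasmic cargo to it. Many of these genes share a promoter element around the letters CACGTG that is bound by the MiT/TFE factors TFEB, TFE3 and MITF, whose entry into the nucleus is limited by phosphorylation, by mTORC1 and, for TFEB, also by ERK. In BRAF-mutant tumours the MAPK pathway has been linked to lysosomal and autophagic gene expression, which is the background to examining these genes after ERK inhibition.

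Promoters with an entry were searched for that element. RefSeq promoter sequences of build GRCh38.p14, from 250 bases before to 50 after an annotated start, were found for 29 of the 42 members. Those of CTSB, HEXA, NAGLU, SGSH, ASAH1, PSAP, LAMP2, ATP6V0E1, ATP6V1A, ATP6V1B2, ATP6V1C1, ATP6V1H and UVRAG had no entry and were not searched. A gene may have several such windows and was counted when any of them held a match. Both strands were searched for CACGTG and for the longer TCACGTGA, which contains it; both read the same on either strand. CACGTG was present in 8 of the 29 genes (27.6%), against 12.5% of 10983 tested genes with a promoter entry and 8.77% of all 27305 genes with one. TCACGTGA was present in 5 of 29 (17.2%), against 2.17% and 1.18%. Counted by promoter instead, CACGTG was in 8 of 43 windows of the members (18.6%) and 9.22% of 16035 windows of the tested genes, and TCACGTGA in 11.6% and 1.60%. The carriers were the hydrolases CTSA, CTSD, GAA and NEU1, the membrane proteins LAMP1, CD63 and MCOLN1, and the pump subunit ATP6V0D1; no match was found in the windows of the 9 autophagy genes or the 3 MiT/TFE factors with an entry. These sequences are shown because the carriers include members that rose and a member that fell under GDC-0994 in KHM-5M. They are printed 5′ to 3′ on the strand of the gene, with each match in capitals:
GAA, chr17:80101331-80101630, plus strand: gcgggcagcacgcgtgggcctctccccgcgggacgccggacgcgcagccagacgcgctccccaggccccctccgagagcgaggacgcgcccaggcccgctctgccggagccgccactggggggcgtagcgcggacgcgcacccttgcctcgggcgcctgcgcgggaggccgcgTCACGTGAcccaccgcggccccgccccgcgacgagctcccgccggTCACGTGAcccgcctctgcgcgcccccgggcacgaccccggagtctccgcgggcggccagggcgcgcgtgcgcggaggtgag
CTSA, chr20:45891085-45891384, plus strand: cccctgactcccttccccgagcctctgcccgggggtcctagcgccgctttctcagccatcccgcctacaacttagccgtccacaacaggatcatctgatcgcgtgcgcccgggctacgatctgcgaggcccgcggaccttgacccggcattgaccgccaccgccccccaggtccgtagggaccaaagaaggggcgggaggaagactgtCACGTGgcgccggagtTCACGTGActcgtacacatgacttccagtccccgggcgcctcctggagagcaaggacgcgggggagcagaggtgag
NEU1, chr6:31862772-31863071, minus strand: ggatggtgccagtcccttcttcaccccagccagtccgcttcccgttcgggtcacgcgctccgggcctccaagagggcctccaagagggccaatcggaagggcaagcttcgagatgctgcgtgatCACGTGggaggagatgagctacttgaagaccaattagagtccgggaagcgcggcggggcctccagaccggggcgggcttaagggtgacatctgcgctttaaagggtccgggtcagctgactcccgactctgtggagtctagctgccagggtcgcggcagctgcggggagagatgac
LAMP1, chr13:113296989-113297288, plus strand: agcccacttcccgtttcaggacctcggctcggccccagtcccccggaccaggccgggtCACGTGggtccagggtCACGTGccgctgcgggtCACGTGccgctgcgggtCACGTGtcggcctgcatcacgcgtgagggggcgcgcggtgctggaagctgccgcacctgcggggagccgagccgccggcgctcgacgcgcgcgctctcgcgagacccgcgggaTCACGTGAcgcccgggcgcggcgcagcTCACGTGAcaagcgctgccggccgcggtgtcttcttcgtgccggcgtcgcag
MCOLN1, chr19:7522374-7522673, plus strand: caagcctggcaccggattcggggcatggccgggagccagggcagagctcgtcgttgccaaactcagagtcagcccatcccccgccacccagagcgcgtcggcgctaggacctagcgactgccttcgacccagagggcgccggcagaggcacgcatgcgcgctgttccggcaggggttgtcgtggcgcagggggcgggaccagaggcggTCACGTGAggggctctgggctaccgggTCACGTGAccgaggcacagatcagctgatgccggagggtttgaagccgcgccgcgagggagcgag
ATP6V0D1, chr16:67481108-67481407, minus strand: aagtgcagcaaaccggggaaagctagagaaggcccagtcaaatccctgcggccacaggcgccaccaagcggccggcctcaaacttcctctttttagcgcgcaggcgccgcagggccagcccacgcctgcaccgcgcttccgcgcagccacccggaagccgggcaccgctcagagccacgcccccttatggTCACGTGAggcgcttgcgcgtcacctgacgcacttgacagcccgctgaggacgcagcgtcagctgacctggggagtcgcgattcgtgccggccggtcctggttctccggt

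Counted from the annotated start, CACGTG began at -76 and -31 in GAA, -42 and -25 in CTSA, and -41 and -14 in MCOLN1. It began at -59 in ATP6V0D1 and -126 in NEU1. Where TCACGTGA is marked, the position is that of the CACGTG within it. LAMP1, which encodes a heavily glycosylated protein of the lysosomal membrane, held 6 matches, between -192 and -1. Of the 8 carriers of CACGTG, 6 rose, 1 fell and 1 was not called under GDC-0994 in KHM-5M; of the 21 members with an entry and no match, 8 rose, 5 fell and 8 were not called. Among all tested genes with an entry, 24.4% of those with CACGTG and 26.1% of those without it rose in that comparison. For TCACGTGA the shares were 36.1% of 238 genes and 25.7% of 10745 genes. These are counts of letters in a window and were not tested.

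Under GDC-0994, lysosome and autophagy genes of KHM-5M moved mostly upward. The largest rises were those of the sialidase NEU1, 2.49-fold, the autophagosome protein GABARAPL1, 2.30-fold, the autophagy receptor SQSTM1, 2.08-fold, and prosaposin, PSAP, 1.98-fold. The largest falls were those of the calcium channel MCOLN1 and the galactosidase GLA, to 0.652 and 0.653 of the DMSO level. In edgeR's quasi-likelihood test with Benjamini-Hochberg adjustment over 16218 genes, 24 of the 42 members rose, 6 fell and 12 were not called at an adjusted p below 0.05. Over all genes 24.6% rose, 25.1% fell and 49.8% were called in either direction. The median log2 fold change was 0.34 over the members and 0.02 over all tested genes. Treated and control libraries did not overlap for 28 members that were higher and 7 that were lower with GDC-0994; the shares of all genes were 30.4% and 30.6%, or 61.0% in either direction.

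**Figure D1:**
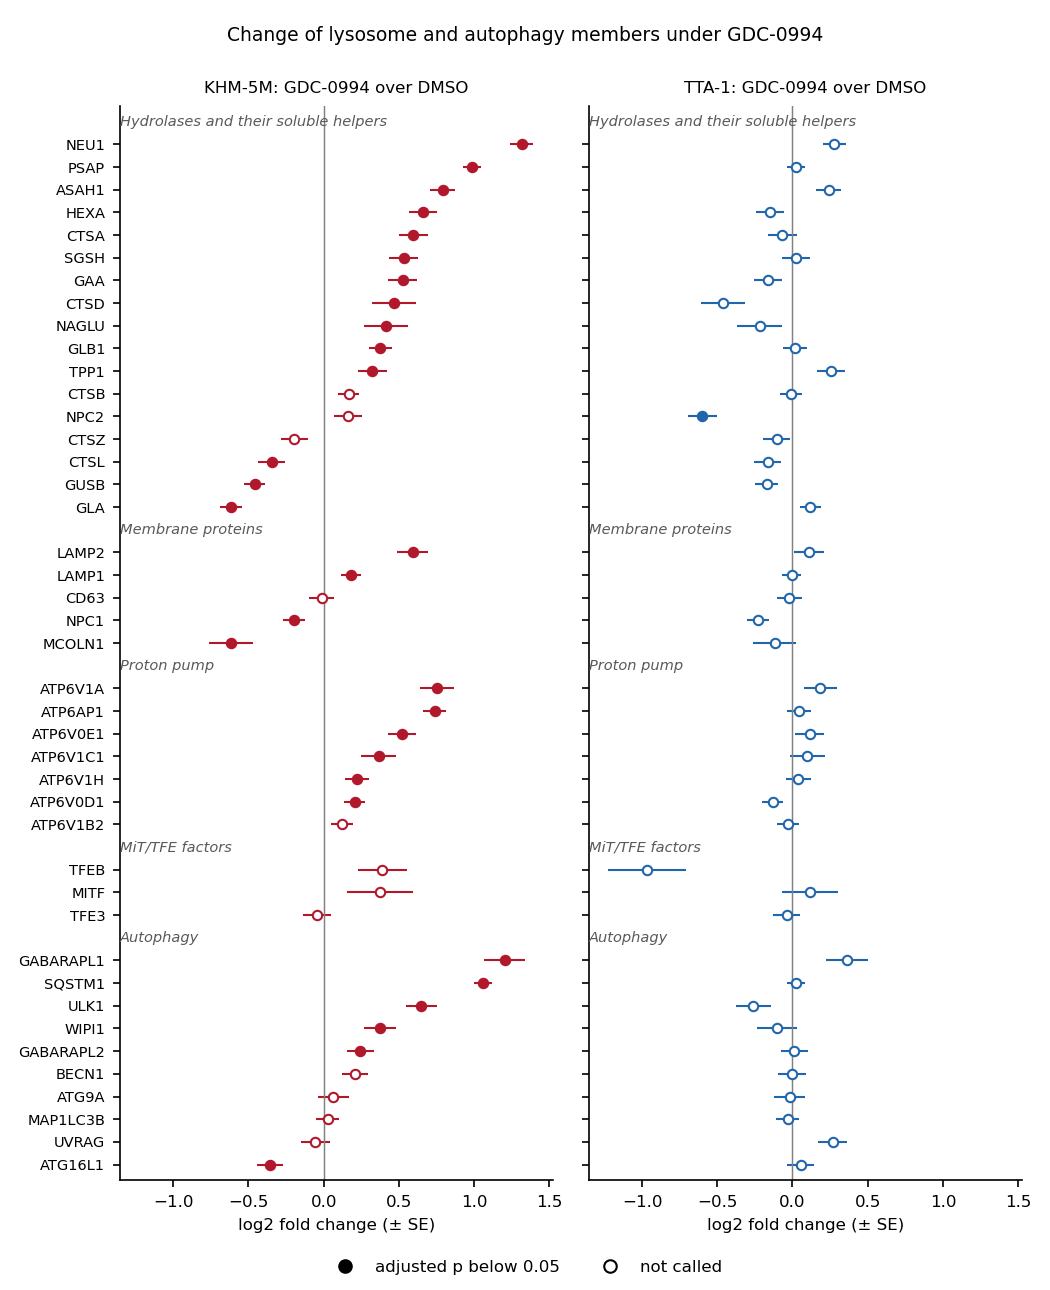
Log2 fold change of each of the 42 members for GDC-0994 over DMSO in KHM-5M (left) and TTA-1 (right), on the same axis, ordered by class and by the KHM-5M value; bars are standard errors from the model of 12 libraries, and filled points passed an adjusted p of 0.05. In KHM-5M 24 points are filled to the right of 0 and 6 to the left, and in TTA-1 only NPC2 is filled, to the left.

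Set per transcript length, as TPM (transcript abundance scaled to a common sum), the hydrolase class added up to 3275 ± 85.7 TPM in KHM-5M with GDC-0994 and 2417 ± 13.5 TPM in KHM-5M with DMSO (SD, n = 3 each). Most of that difference was PSAP: without it the other 16 genes summed to 1777 ± 23.2 TPM with GDC-0994 and 1661 ± 4.36 TPM with DMSO. The proton pump class summed to 729 ± 9.50 TPM with GDC-0994 and 517 ± 8.72 TPM with DMSO. The autophagy class summed to 697 ± 5.07 TPM with GDC-0994 and 453 ± 8.99 TPM with DMSO, and to 341 ± 2.31 and 283 ± 5.12 TPM without SQSTM1. In these 3 classes every GDC-0994 library lay above every DMSO library. The membrane class, 1206 ± 47.3 TPM with GDC-0994 and 1140 ± 31.3 TPM with DMSO, and the MiT/TFE class, 68.9 ± 2.04 and 67.1 ± 2.14 TPM, had groups that overlapped. The TPM values use the full annotated exon length of each gene, so that genes with long unused exons are understated. In bulk RNA fewer cells that express a gene and less RNA per cell cannot be told apart.

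**Figure D2:**
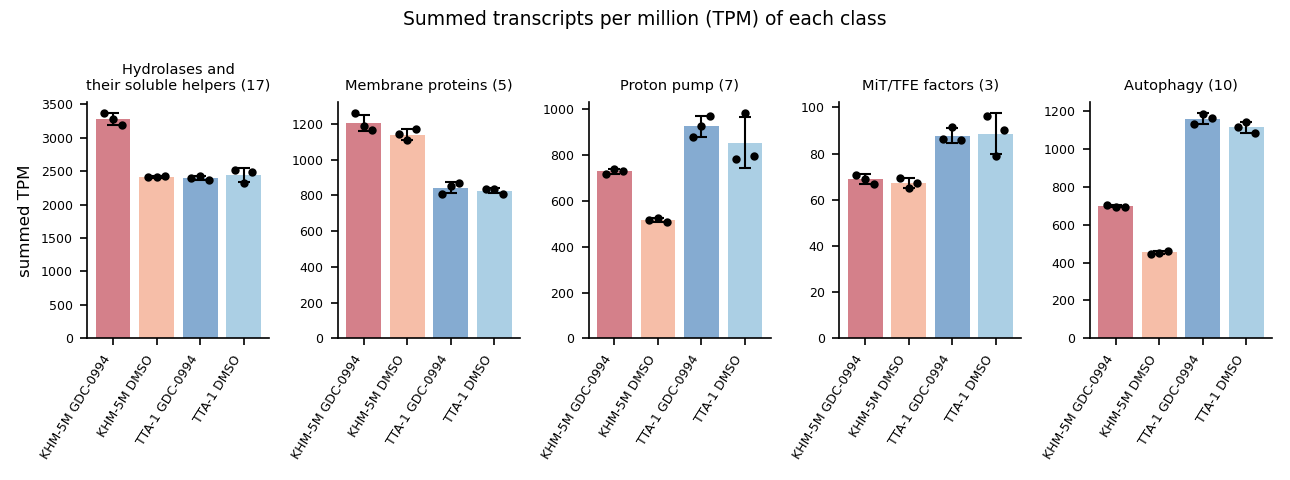
Summed TPM of each class of members in each library (points), with the group mean (bar) and SD (whisker), n = 3; the number of genes is in brackets. The hydrolase, pump and autophagy bars of KHM-5M stand higher with GDC-0994 than with DMSO, while the 2 TTA-1 bars of each class overlap in their libraries.

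Among the 17 hydrolases and soluble helpers of KHM-5M, 11 rose, 3 fell and 3 were not called. The shares of all genes were 24.6% risen and 25.1% fallen. The class had a median log2 fold change of 0.41. NEU1, which removes sialic acid from glycoproteins (ENSG00000204386, chr6:31857659-31862906, minus strand), had 87.7, 93.7 and 90.4 CPM in the KHM-5M GDC-0994 libraries, against 36.7, 33.9 and 38.6 CPM in the KHM-5M DMSO libraries. Every treated library was far above every control library, a log2 fold change of 1.32 ± 0.08 (SE; adjusted p = 4.60e-10). PSAP, the precursor of the saposins that present sphingolipids to their hydrolases (ENSG00000197746, chr10:71816298-71851375, minus strand), had 1429.6, 1312 and 1245 CPM with GDC-0994, against 675, 656 and 683 CPM with DMSO. By TPM it was the most abundant member in the treated libraries, at 1498 ± 62.6 TPM with GDC-0994, and second to CD63 by group mean in the controls, at 756 ± 10.6 TPM with DMSO. In replicate 2 of DMSO PSAP, at 746.7 TPM, was above CD63, at 737.7 TPM. The groups of PSAP were far apart (log2 fold change 0.99 ± 0.06, adjusted p = 8.79e-10).

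The other hydrolases that rose did so by less. ASAH1, the acid ceramidase, had a log2 fold change of 0.79 ± 0.08, and HEXA, a subunit of the hexosaminidase that degrades ganglioside, one of 0.66 ± 0.09. CTSA, the carboxypeptidase that protects NEU1 and GLB1 in a complex, rose by 0.60 ± 0.10, and the beta-galactosidase GLB1 itself by 0.38 ± 0.08. The heparan sulfate enzymes SGSH (0.53 ± 0.10) and NAGLU (0.41 ± 0.15), the glycogen-degrading GAA (0.53 ± 0.10), the aspartic protease CTSD (0.47 ± 0.15) and the tripeptidyl peptidase TPP1 (0.32 ± 0.09) also rose. The adjusted p-values of these 9 genes ranged from 6.29e-07 to 0.0267. NAGLU lost its call without KHM-5M GDC-0994 replicate 1 (adjusted p = 0.0686 in edgeR), KHM-5M DMSO replicate 2 (0.0805) or KHM-5M DMSO replicate 3 (0.0768). The spans of SGSH, CTSA and WIPI1 overlap those of the opposite-strand genes SLC26A11, PLTP and ARSG, and those of NPC2 and NPC1 overlap ISCA2 and RMC1. The protocols give no step that marks strand, and without one reads of any shared exons cannot be told apart. GLB1 overlaps on the same strand the coding gene TMPPE, at 86.2 counts per library against 1054 for GLB1. CTSD and HEXA overlap the same-strand coding genes AC068580.4 (6.33 counts) and AC009690.1 (0.5 counts). Whether exons are shared was not examined.

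Not every hydrolase moved upward. GLA, the alpha-galactosidase that is deficient in Fabry disease (ENSG00000102393, chrX:101397803-101408012, minus strand), had 36.8, 31.2 and 33.0 CPM with GDC-0994, against 49.8, 53.8 and 51.1 CPM with DMSO. All treated libraries were below all control libraries (log2 fold change -0.61 ± 0.07, adjusted p = 3.34e-06). GUSB, the beta-glucuronidase (ENSG00000169919, chr7:65960684-65982314, minus strand), had 59.9, 56.3 and 54.9 CPM with GDC-0994, against 81.1, 79.1 and 75.1 CPM with DMSO, again with no overlap (-0.46 ± 0.07, adjusted p = 4.88e-05). GUSB has many near-identical pseudogene copies, which makes its level uncertain. The cysteine protease CTSL fell, with a log2 fold change of -0.35 ± 0.09 (adjusted p = 0.00463), a call lost without KHM-5M DMSO replicate 1 (0.0524). Its relatives CTSB (0.17 ± 0.07, adjusted p = 0.0585) and CTSZ (-0.19 ± 0.09, adjusted p = 0.0746), and the sterol carrier NPC2 (0.16 ± 0.09, adjusted p = 0.164) were not called. CTSB was called in 10 of 17 alternatives, among them DESeq2 (adjusted p = 0.0192) and the fit without KHM-5M GDC-0994 replicate 3 (adjusted p = 0.0202), and leaving out KHM-5M GDC-0994 replicate 1 did so for CTSZ (0.0478).

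Of the 5 membrane proteins in KHM-5M, 2 rose, 2 fell and 1 was not called, against 24.6% risen and 25.1% fallen over all genes. LAMP2, a glycoprotein that also serves as receptor for chaperone-mediated autophagy (ENSG00000005893, chrX:120427827-120469365, minus strand), had 205, 230.2 and 239 CPM with GDC-0994, against 152, 152 and 143 CPM with DMSO. The groups did not overlap and the log2 fold change was 0.59 ± 0.10 (adjusted p = 0.000137). LAMP1, its relative and the gene with 6 CACGTG matches above, had 411, 373 and 383 CPM with GDC-0994, against 336, 349 and 343 CPM with DMSO. This was a rise of 0.18 ± 0.06 (adjusted p = 0.0270) whose call was lost when KHM-5M GDC-0994 replicate 1 (0.0982) or KHM-5M DMSO replicate 1 (0.0620) or 3 (0.05001) was left out, and in a fit with a replicate block (0.0560).

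MCOLN1, the cation channel that releases calcium from lysosomes (ENSG00000090674, chr19:7522626-7534009, plus strand), had 7.54, 7.41 and 6.14 CPM with GDC-0994, against 10.7, 10.4 and 11.3 CPM with DMSO. All 3 treated libraries were below all controls, with a log2 fold change of -0.62 ± 0.15 (adjusted p = 0.00210). Its promoter carries TCACGTGA at the sites shown above, as do those of GAA and CTSA, which rose. MCOLN1 averaged 160.4 counts per library, overlaps PNPLA6 on the same strand (1277 counts) and a second coding gene counted at 0, and its level is therefore uncertain. NPC1, which exports cholesterol from the lysosome, had 87.9, 75.4 and 80.2 CPM with GDC-0994, against 95.1, 93.9 and 90.6 CPM with DMSO, a log2 fold change of -0.20 ± 0.07 (adjusted p = 0.0355). That call was lost in 13 of 17 alternatives, among them 5 of the 6 that leave out a library: the adjusted p was 0.171 without KHM-5M GDC-0994 replicate 2, 0.148 without replicate 3, and 0.173, 0.135 and 0.0766 without KHM-5M DMSO replicate 1, 2 or 3. The tetraspanin CD63 had a log2 fold change of -0.01 ± 0.08 (adjusted p = 0.921) and overlapping groups.

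Of the 7 proton pump genes 6 rose in KHM-5M and 1 was not called, against 24.6% risen and 25.1% fallen over all genes. The class had a median log2 fold change of 0.37. ATP6V1A, the subunit that binds and hydrolyses ATP (ENSG00000114573, chr3:113747019-113812056, plus strand), had 66.1, 80.3 and 87.1 CPM with GDC-0994, against 47.1, 46.3 and 45.2 CPM with DMSO. The treated libraries varied more than the controls but lay entirely above them (0.75 ± 0.11, adjusted p = 4.05e-05). ATP6AP1, an accessory protein needed to assemble the pump (ENSG00000071553, chrX:154428632-154436516, plus strand), had 221, 206 and 205 CPM with GDC-0994, against 123, 123 and 133 CPM with DMSO, with no overlap (0.74 ± 0.08, adjusted p = 6.40e-07). The membrane-domain subunits ATP6V0E1 (0.52 ± 0.10) and ATP6V0D1 (0.21 ± 0.07) and the cytosolic-domain subunits ATP6V1C1 (0.37 ± 0.12) and ATP6V1H (0.22 ± 0.08) rose by less. The second cytosolic-domain core subunit, ATP6V1B2, had 0.12 ± 0.07 (adjusted p = 0.181) and was called without KHM-5M GDC-0994 replicate 3 (0.0317).

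The 3 smallest of these rises lost their calls in some fits that leave out 1 library. The ATP6V1H call (adjusted p = 0.0294 in edgeR) was lost without KHM-5M GDC-0994 replicate 1 (0.0821) or 2 (0.0890) or KHM-5M DMSO replicate 2 (0.0622), and with a replicate block (0.0517). The ATP6V0D1 call (0.0215) was lost without KHM-5M DMSO replicate 1 (0.0573) or 3 (0.0522), and the ATP6V1C1 call (0.0161) without KHM-5M GDC-0994 replicate 2 (0.0546).

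Of the 10 autophagy genes in KHM-5M, 5 rose, 1 fell and 4 were not called, against 24.6% risen and 25.1% fallen over all genes. GABARAPL1, which is conjugated to autophagosome membranes and recruits cargo (ENSG00000139112, chr12:10212458-10223130, plus strand), had 59.5, 54.4 and 45.4 CPM with GDC-0994, against 22.2, 22.6 and 24.5 CPM with DMSO. Its groups did not overlap (1.20 ± 0.13, adjusted p = 1.23e-06). SQSTM1, also called p62, links ubiquitinated cargo to the autophagosome (ENSG00000161011, chr5:179806398-179838078, plus strand); it had 782, 724 and 731 CPM with GDC-0994, against 355, 352 and 368 CPM with DMSO. Each treated library was far above each control (1.06 ± 0.06, adjusted p = 2.44e-10). ULK1, the kinase that starts autophagosome formation (ENSG00000177169, chr12:131894651-131923167, plus strand), had 87.7, 75.4 and 73.2 CPM with GDC-0994, against 48.6, 48.1 and 54.0 CPM with DMSO, again without overlap (0.65 ± 0.10, adjusted p = 5.03e-05). WIPI1, a lipid-binding protein of the forming autophagosome, rose by 0.37 ± 0.11 and GABARAPL2, a relative of GABARAPL1, by 0.24 ± 0.09.

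The GABARAPL2 call (adjusted p = 0.0338 in edgeR) was lost without KHM-5M GDC-0994 replicate 2 (0.0925) and in the fits that leave out KHM-5M DMSO replicate 1 (0.0598) or 2 (0.0570). ATG16L1, part of the complex that attaches LC3 to membranes (ENSG00000085978, chr2:233210051-233295674, plus strand), had 31.1, 29.4 and 28.7 CPM with GDC-0994, against 39.5, 36.6 and 38.0 CPM with DMSO. All 3 treated libraries were lower (-0.35 ± 0.09, adjusted p = 0.00265). MAP1LC3B, the LC3 gene most used as an autophagosome marker (0.03 ± 0.08), the lipid scramblase ATG9A (0.06 ± 0.10), and UVRAG (-0.06 ± 0.10) and BECN1 (0.21 ± 0.09) of the lipid kinase complex were not called, at adjusted p-values of 0.0593 to 0.808. BECN1 was called in 9 of 17 alternatives, DESeq2 among them (0.0250). SQSTM1 and MAP1LC3B overlap MGAT4B and FBXO31 on the opposite strand, and BECN1 overlaps the more highly counted PSME3 (4182 against 791 counts per library), so these values may include reads of their neighbours.

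**Figure D3:**
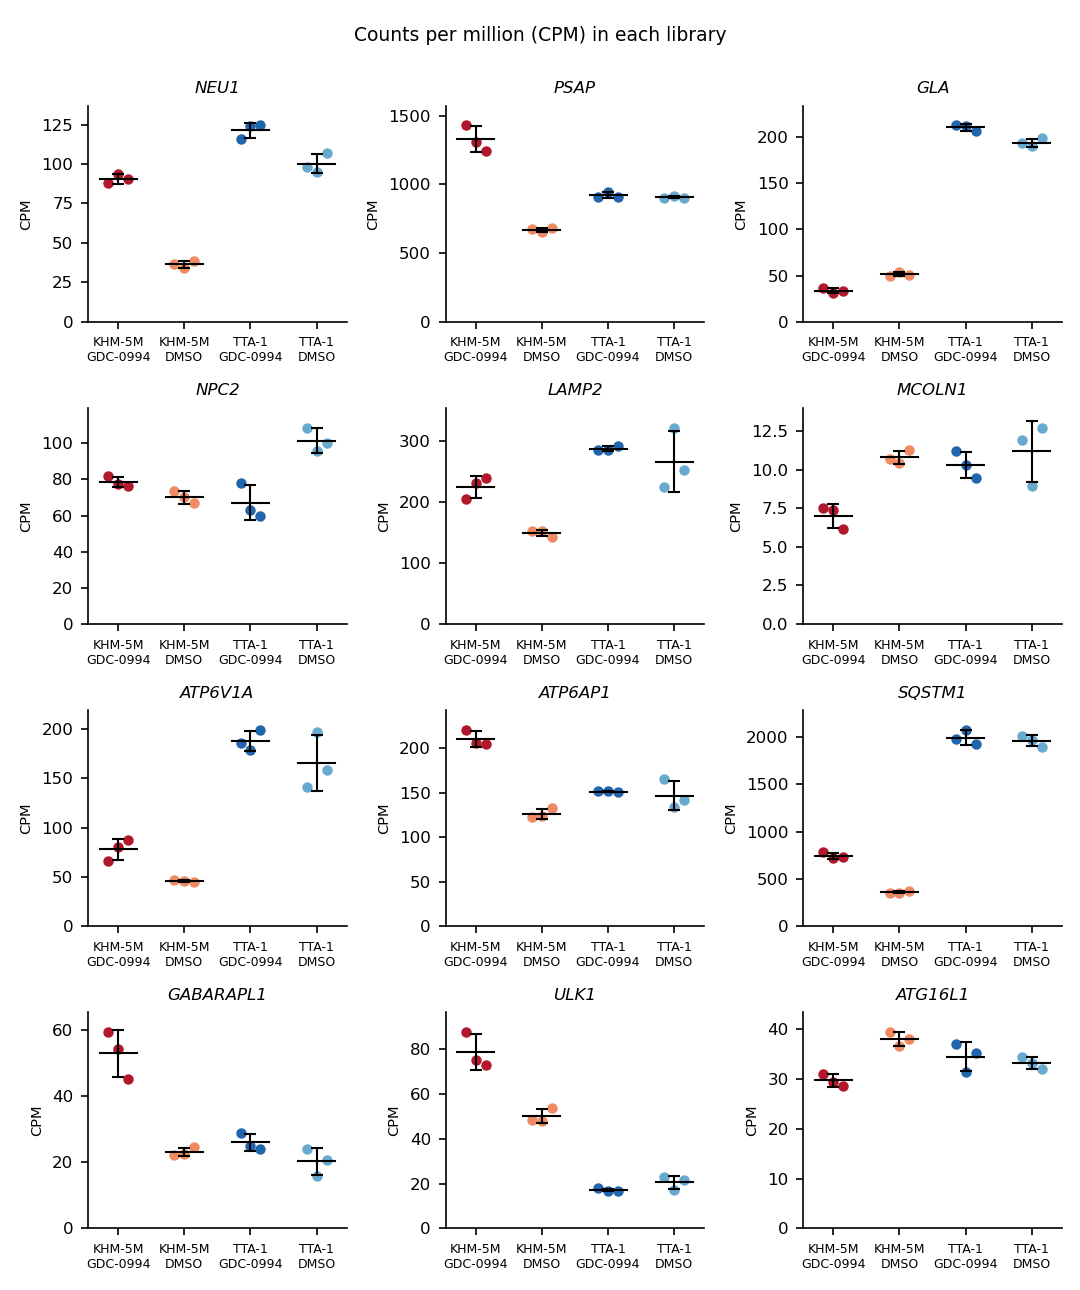
CPM of 12 members in each library (points), by group from left to right, with the group mean (line) and SD (whisker), n = 3; each vertical axis starts at 0. NEU1, PSAP, LAMP2, ATP6V1A, ATP6AP1, SQSTM1, GABARAPL1 and ULK1 are higher, and GLA, MCOLN1 and ATG16L1 lower, in the KHM-5M GDC-0994 libraries than in the KHM-5M DMSO libraries, with no overlap, while NPC2 is lower with GDC-0994 in TTA-1.

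The transcripts of the MiT/TFE factors themselves did not pass the edgeR test in either line with all libraries. TFEB (ENSG00000112561, chr6:41683978-41736259, minus strand) had 19.7, 19.1 and 18.8 CPM in the KHM-5M GDC-0994 libraries, against 14.4, 13.4 and 16.2 CPM in the KHM-5M DMSO libraries, with no overlap (0.39 ± 0.16, adjusted p = 0.0524 in edgeR). It lies just outside the threshold: it was called in 11 of 17 alternatives, among them the fit without KHM-5M DMSO replicate 3 (0.0475) and DESeq2 (0.0429). In TTA-1 it had 1.87, 1.27 and 1.38 CPM with GDC-0994, against 4.04, 1.84 and 2.96 CPM with DMSO, where replicate 2 of DMSO fell inside the treated range (-0.96 ± 0.26, adjusted p = 0.0524). It was called there in 6 of 17 alternatives, among them DESeq2 (0.00848). Without DMSO replicate 2 the TTA-1 log2 fold change was -1.23 (adjusted p = 0.00128).

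TFE3, the most abundant of the 3 by TPM in all 4 groups (ENSG00000068323, chrX:49028726-49043486, minus strand), had 69.0, 62.6 and 59.7 CPM in KHM-5M with GDC-0994, against 69.6, 63.1 and 64.7 CPM with DMSO. The groups overlapped (-0.05 ± 0.09, adjusted p = 0.719). In TTA-1 it had 99.8, 107 and 96.9 CPM with GDC-0994, against 116, 90.2 and 105 CPM with DMSO, which also overlapped (-0.04 ± 0.09, adjusted p = 0.885). MITF, the family member best known from melanocytes (ENSG00000187098, chr3:69739435-69968337, plus strand), had 3.43, 4.37 and 4.60 CPM in KHM-5M with GDC-0994, against 2.54, 3.69 and 3.32 CPM with DMSO, and 11.9, 9.16 and 8.64 CPM in TTA-1 with GDC-0994, against 6.90, 10.1 and 10.5 CPM with DMSO. Its log2 fold changes were 0.37 ± 0.22 in KHM-5M (adjusted p = 0.173) and 0.12 ± 0.19 in TTA-1 (adjusted p = 0.811), with overlapping groups in both. Summed melanocytic markers stayed at or below 1.60 CPM in every library. The activity of these factors depends on where the protein sits in the cell, which RNA does not measure.

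**Figure D4:**
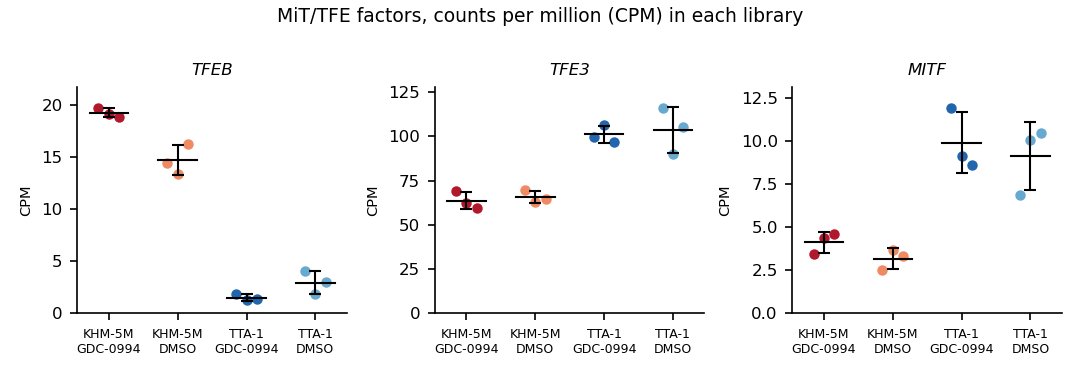
CPM of TFEB, TFE3 and MITF in each library (points), with the group mean (line) and SD (whisker), n = 3, and axes that start at 0. TFEB is higher in KHM-5M than in TTA-1, where it is at most 4.04 CPM. In KHM-5M its GDC-0994 libraries lie above its DMSO libraries. TFE3 and MITF are lower in KHM-5M than in TTA-1.

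In TTA-1 1 of the 42 members passed the test at the same dose, a share near that of all genes. NPC2, the soluble carrier that hands cholesterol to NPC1 (ENSG00000119655, chr14:74476192-74494177, minus strand), was the 1 member called: it had 78.1, 62.9 and 60.0 CPM with GDC-0994, against 109, 95.5 and 100.4 CPM with DMSO. The groups did not overlap, and the log2 fold change was -0.60 ± 0.09 (edgeR, adjusted p = 0.00137). The call held without each library in turn. The other 41 members were not called in either direction. Over all genes 1.18% rose and 2.24% fell, 3.43% in all, and the median log2 fold change was -0.01 over the members and 0.01 over all genes. At an unadjusted p below 0.05, 5 members were higher and 6 lower. DESeq2 called 1 member as risen and 3 as fallen (293 and 580 of its 32513 genes). Limma on log2(FPKM + 1) called 1 and 1 with a filter on low FPKM (166 and 319 of 13418 genes). With no filter limma called 0 and 1 (126 and 215 of 32513 genes). Treated and control libraries did not overlap for 5 members that were higher and 4 that were lower; the shares of all genes were 9.75% and 9.05%, or 18.8% in either direction.

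The TTA-1 member nearest the threshold in the upward direction was again NEU1, with 116, 124 and 124 CPM with GDC-0994, against 98.4, 95.1 and 107 CPM with DMSO. Its groups did not overlap (0.28 ± 0.07, adjusted p = 0.0517), and it was called in 5 of 17 alternatives, DESeq2 among them (0.00544). Much of the TTA-1 picture depends on DMSO replicate 2. Without it 5 members rose, namely ASAH1 (0.29), TPP1 (0.32), ATP6V1A (0.30), LAMP2 (0.25) and ATP6V0E1 (0.23). Then 7 fell: TFEB, CTSD (-0.66), ULK1 (-0.39), CTSL (-0.29), CTSZ (-0.24), CTSA (-0.22) and NPC2. The number of genes called over the whole table was then 2620, against 556 with all libraries. Of the 16678 genes tested in that fit, 5.36% rose and 10.3% fell. CTSD shows this directly, with 186, 162 and 127 CPM with GDC-0994, against 269, 162 and 223 CPM with DMSO, where replicate 2 of DMSO lay among the treated values.

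The summed levels of every class overlapped between the TTA-1 groups. Hydrolases summed to 2396 ± 27.3 TPM with GDC-0994 and 2439 ± 102.9 TPM with DMSO, and the pump to 927 ± 45.6 and 854 ± 111.1 TPM. Autophagy genes summed to 1158 ± 28.3 TPM with GDC-0994 and 1114 ± 30.0 TPM with DMSO, and membrane proteins to 844 ± 32.8 and 827 ± 14.4 TPM. The 3 MiT/TFE factors gave 87.8 ± 3.10 TPM with GDC-0994 and 88.5 ± 8.85 TPM with DMSO (SD, n = 3 each). Without DMSO replicate 2 the groups no longer overlapped for 3 of the 5 classes. The other DMSO libraries had 2515 and 2479 TPM for the hydrolases, above all treated libraries, and 783 and 797 TPM for the pump and 1114 and 1084 TPM for autophagy genes, below all treated libraries.

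The effect of GDC-0994 differed between the lines for 24 of the 42 members, by the interaction term of the same edgeR model. The signed log2 fold change was greater, that is, more positive, in KHM-5M for 21 members. It was smaller, that is, more negative, for 3. Over all genes 12.3% were called greater and 15.6% smaller, 27.9% in all. The median difference was 0.30 over the members and 0.02 over all genes. Of the 24 members that rose in KHM-5M, 19 had a greater effect there than in TTA-1, and 5 had no difference past the test: TPP1 (0.07 ± 0.13), LAMP1 (0.19 ± 0.09), ATP6V1C1 (0.27 ± 0.17), ATP6V1H (0.18 ± 0.11) and GABARAPL2 (0.23 ± 0.13). The lines share no library, so the effects compared are independent in their samples.

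By class, the effect was greater in KHM-5M for 11 hydrolase genes, 4 pump genes, 4 autophagy genes, LAMP2 and TFEB. TFEB differed by 1.36 ± 0.31 (adjusted p = 0.00296; 0.57 to 1.65 over the alternatives), made of a higher level with GDC-0994 in KHM-5M and a lower one in TTA-1. NEU1 (1.04 ± 0.11), SQSTM1 (1.03 ± 0.08) and PSAP (0.96 ± 0.09) also differed, with adjusted p-values of 1.25e-06, 6.50e-08 and 2.28e-07. In TTA-1 SQSTM1 had 1977, 2078 and 1926 CPM with GDC-0994, against 2011, 1975 and 1897 CPM with DMSO, and PSAP had 912, 948 and 907 CPM with GDC-0994, against 903, 915 and 905 CPM with DMSO. These TTA-1 groups overlapped for both genes. ULK1 (0.91 ± 0.15) had 17.9, 16.8 and 16.8 CPM in TTA-1 with GDC-0994, against 22.9, 17.3 and 21.4 CPM with DMSO. Among the pump genes ATP6AP1 (0.69 ± 0.11) and ATP6V1A (0.57 ± 0.16) differed most.

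NPC2 was called for the difference (0.76 ± 0.13, adjusted p = 0.000339) although it was called in TTA-1 and not in KHM-5M, where it had 81.7, 77.6 and 76.3 CPM with GDC-0994, against 73.9, 70.0 and 66.8 CPM with DMSO. GLA (-0.73 ± 0.10, adjusted p = 3.60e-05), ATG16L1 (-0.41 ± 0.12, 0.0196) and GUSB (-0.29 ± 0.10, 0.0472) had a smaller effect in KHM-5M, that is, a more negative one. GLA had 212, 212 and 206 CPM in TTA-1 with GDC-0994, against 193, 189.9 and 198 CPM with DMSO, higher in each treated library. The GUSB difference lost its call in 11 of the 12 fits that leave out a library (adjusted p from 0.0891 without KHM-5M DMSO replicate 3 to 0.206 without KHM-5M DMSO replicate 1; it was kept without KHM-5M GDC-0994 replicate 1). The WIPI1 difference was lost in 9 of them (up to 0.0857, without TTA-1 DMSO replicate 1), ATG16L1 in 7 (up to 0.101, without TTA-1 GDC-0994 replicate 1) and NAGLU in 6 (up to 0.0688, without KHM-5M DMSO replicate 2). The ATP6V0E1 difference was lost without KHM-5M GDC-0994 replicate 1 (0.0716) or 2 (0.0609), KHM-5M DMSO replicate 3 (0.0521) or TTA-1 GDC-0994 replicate 1 (0.0505). Without TTA-1 DMSO replicate 2 the counts were 22 greater and 2 smaller, against 15.8% and 15.3% of all genes.

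Under DMSO 32 of the 42 members differed between the lines, a share near that of all genes. SQSTM1, GLA and the pump gene ATP6V1A were lower in KHM-5M, while TFEB and the protease CTSB were higher. Of the 42 members 11 were higher in KHM-5M DMSO than in TTA-1 DMSO, 21 were lower and 10 were not called (edgeR); over all genes 39.6% were higher, 36.8% lower and 76.5% called in either direction. The median log2 fold change was -0.18 over the members and 0.03 over all genes. Groups did not overlap for 12 members that were higher and 21 that were lower, against 40.5% and 37.3% of all genes and 77.8% in either direction. Without TTA-1 DMSO replicate 2 the counts were 11 higher and 22 lower, against 38.1% and 36.0% of all genes.

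The gap was uneven within the hydrolases, of which 4 were higher and 9 lower in KHM-5M. CTSB, a cysteine protease, had 280.3, 269.6 and 288 CPM in KHM-5M DMSO, against 70.4, 66.7 and 71.8 CPM in TTA-1 DMSO, and CTSZ had 394, 385 and 390.3 CPM in KHM-5M DMSO, against 146, 109 and 140.1 CPM in TTA-1 DMSO. Both were far higher in every KHM-5M library (2.00 ± 0.07 and 1.56 ± 0.09). CTSL, of the same protease family, was lower in KHM-5M (-1.46 ± 0.09), as were GLA (-1.91 ± 0.07) and NEU1 (-1.46 ± 0.08); none of the 3 overlapped between the lines. The adjusted p-values of these 5 genes ranged from 2.10e-13 to 1.77e-10.

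Among membrane proteins CD63 (574, 526 and 589 CPM in KHM-5M DMSO, against 366, 312 and 326 CPM in TTA-1 DMSO) was higher in KHM-5M (0.75 ± 0.08) and so was LAMP1 (0.23 ± 0.06), at 308, 273 and 296 CPM in the TTA-1 DMSO libraries. The LAMP1 call was lost with the GC and length trend removed (edgeR, adjusted p = 0.115). LAMP2 (-0.83 ± 0.10), at 224, 321 and 252 CPM in TTA-1 DMSO, and NPC1 (-0.62 ± 0.07), at 134, 152 and 145 CPM in TTA-1 DMSO, were lower in KHM-5M. With the GC and length trend removed LAMP2 was still called, at -0.21. Of the 7 pump genes 6 were lower in KHM-5M, led by ATP6V1A (-1.84 ± 0.12), at 141, 197 and 159 CPM in the TTA-1 DMSO libraries, and ATP6V0E1 (-1.02 ± 0.10), which had 98.5, 96.5 and 91.3 CPM in KHM-5M DMSO, against 175, 230.3 and 176 CPM in TTA-1 DMSO. The exception was ATP6V1H (0.04 ± 0.08, adjusted p = 0.629). The ATP6AP1 call (-0.22 ± 0.08, edgeR adjusted p = 0.0191) was lost without KHM-5M DMSO replicate 1 (0.0745) or 2 (0.0784) or TTA-1 DMSO replicate 1 (0.166).

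The 3 MiT/TFE factors were all called, in opposite directions: TFEB was higher in KHM-5M (2.31 ± 0.19, adjusted p = 9.91e-09) and TFE3 (-0.66 ± 0.09, 5.65e-06) and MITF (-1.52 ± 0.21, 3.77e-06) were lower. Among the autophagy genes WIPI1 (16.1, 17.7 and 17.7 CPM in KHM-5M DMSO, against 6.64, 5.20 and 5.80 CPM in TTA-1 DMSO; 1.54 ± 0.12) and ULK1 (1.29 ± 0.11) were higher in KHM-5M. SQSTM1 had the largest gap of any member in the fit of all libraries (-2.45 ± 0.06, adjusted p = 2.04e-15), and MAP1LC3B, with 102, 96.8 and 91.8 CPM in KHM-5M DMSO, against 124, 146 and 124 CPM in TTA-1 DMSO, was also lower (-0.44 ± 0.08). The GABARAPL2 call (0.24 ± 0.09) was lost when KHM-5M DMSO replicate 3 (adjusted p = 0.0633) or TTA-1 DMSO replicate 1 was left out (0.0930).

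**Figure D5:**
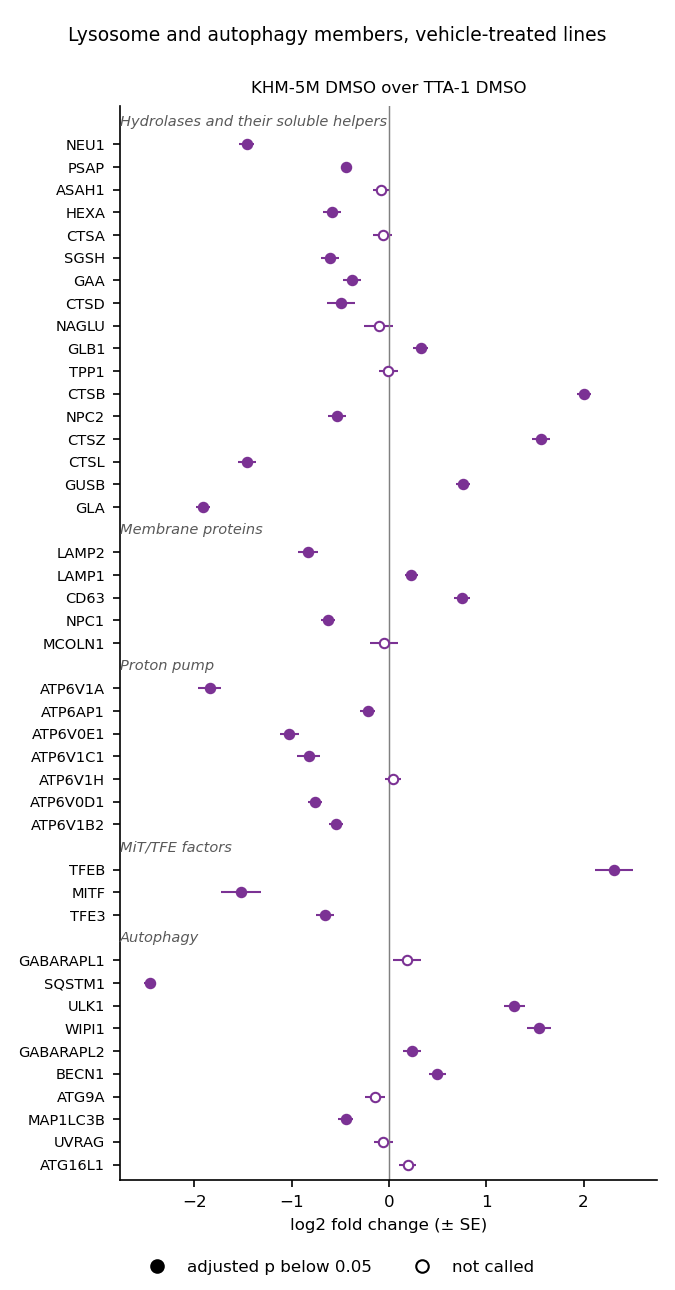
Log2 fold change of each member for KHM-5M DMSO over TTA-1 DMSO, in the same order as the plot of GDC-0994 effects, with standard errors; filled points passed an adjusted p of 0.05. The pump genes lie left of 0 except ATP6V1H, TFEB and CTSB lie farthest to the right and SQSTM1 farthest to the left.

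The comparison between the lines and that of GDC-0994 in KHM-5M share the KHM-5M DMSO libraries, so levels are given side by side. For NEU1 the mean was 90.6 ± 2.996 CPM in KHM-5M with GDC-0994, 36.4 ± 2.36 CPM in KHM-5M with DMSO, 121 ± 4.88 CPM in TTA-1 with GDC-0994 and 100.1 ± 5.96 CPM in TTA-1 with DMSO (SD, n = 3 each). For SQSTM1 the treated KHM-5M mean, 746 ± 31.3 CPM, remained below the TTA-1 DMSO mean of 1961 ± 58.2 CPM, and for PSAP it lay above it, at 1329 ± 93.5 CPM against 908 ± 6.47 CPM.

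Other genes of the same pathway, 142 from lists of further hydrolases, membrane proteins, pump subunits, autophagy genes, mTORC1 and MiT/TFE regulators and mannose 6-phosphate delivery, were examined in the same comparisons. These lists, like the members, were chosen with earlier results of these data known, so their counts are descriptive. Of the 136 tested, 67 rose and 15 fell in KHM-5M with GDC-0994, against 24.6% and 25.1% of all genes. The median log2 fold change was 0.29. The same shares of all genes apply to the KHM-5M counts of each list below. In TTA-1 1 rose and 5 fell, against 1.18% and 2.24% of all genes. Leaving out TTA-1 DMSO replicate 2 was a setting applied to these genes after their values were seen. In that fit 7 rose and 18 fell, against 5.36% and 10.3% of all genes. Further hydrolases in KHM-5M gave 24 rises and 2 falls among 33, led in rise by the cysteine proteases CTSO (29.7, 30.4 and 28.4 CPM with GDC-0994, against 8.46, 8.89 and 9.51 CPM with DMSO; 1.72 ± 0.11) and CTSS (1.46 ± 0.21). The dipeptidase CTSC fell (-0.26 ± 0.07).

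The largest change in these lists was that of MAP1LC3C, an LC3 gene. It had 65.4, 58.3 and 55.7 CPM in KHM-5M with GDC-0994, against 0.226, 1.04 and 0.688 CPM with DMSO, and 1.27, 1.27 and 1.73 CPM in TTA-1 with GDC-0994, against 1.04, 1.05 and 1.39 CPM with DMSO. Only the treated KHM-5M libraries were above 2 CPM, a log2 fold change of 6.51 ± 0.22 in KHM-5M (edgeR, adjusted p = 6.27e-13) and 0.29 ± 0.31 in TTA-1 (0.690), with a difference of 6.23 ± 0.44 (1.34e-08; 6.34 without TTA-1 DMSO replicate 2). The control side rests on 34 reads over 3 libraries, against 3202 in the treated ones. GABARAP also rose (1.66 ± 0.42) on 96 reads with GDC-0994, against 30 with DMSO; its span overlaps on the same strand a coding gene counted at 0, so its level is uncertain. Of 41 further autophagy genes 16 rose and 5 fell, with the largest falls in ATG16L2 (-0.86 ± 0.13), a relative of ATG16L1, and ATG101 (-0.57 ± 0.15), a subunit of the ULK1 complex.

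Of 19 further membrane proteins 9 rose and 2 fell: the glycoprotein GPNMB (1.23 ± 0.16) and the nucleoside transporter SLC29A3 (0.88 ± 0.13) rose most, and the polyamine transporter ATP13A2 (-1.63 ± 0.10) and LAPTM5 (-1.09 ± 0.11) fell most. GPNMB rose and ATP13A2 fell in TTA-1 too (0.88 ± 0.19 and -0.57 ± 0.11, edgeR adjusted p = 0.0126 and 0.00589). Of 15 further pump subunits 4 rose, a share near the 24.6% of all genes, and 2 fell. ATP6V0A4 (1.05 ± 0.29, on 170 reads with GDC-0994 and 81 with DMSO) and TCIRG1 (0.44 ± 0.10) rose most. ATP6V0B (-0.48 ± 0.07) and ATP6V0A2 (-0.29 ± 0.10) fell. In TTA-1 the pump subunit ATP6V0E2 (-0.50 ± 0.13) and the autophagy genes ATG16L2 (-0.59 ± 0.13) and EPG5 (-0.58 ± 0.10) fell. Without TTA-1 DMSO replicate 2 these 5 genes were called in the same direction, with log2 fold changes of 0.80 for GPNMB, -0.71 for ATP13A2, -0.48 for ATP6V0E2, -0.66 for ATG16L2 and -0.52 for EPG5.

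Of 19 regulators 8 rose and 3 fell in KHM-5M. PPARGC1A, a transcriptional coactivator, rose on few reads (1.88 ± 0.63; 71 with GDC-0994 and 19 with DMSO over 3 libraries), the GTPase RRAGB rose (0.76 ± 0.17), and RHEB, the GTPase that activates mTORC1, and FNIP2, a partner of folliculin, fell (-0.58 ± 0.08 and -0.50 ± 0.13). Of the 9 genes that tag hydrolases with mannose 6-phosphate and carry them to the lysosome 6 rose and 1 fell. The tagging enzyme GNPTAB (0.59 ± 0.14) and the adaptor GGA2 (0.45 ± 0.07) rose, and the receptor M6PR fell (-0.28 ± 0.08, edgeR adjusted p = 0.0108).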

How the data were processed

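Polyadenylated RNA of 12 libraries was sequenced, and 1 table of whole-number counts per gene and 1 table of FPKM were deposited by the authors. Per the submitters' processing notes, the tools were CASAVA, HISAT2 2.0.5 and also featureCounts 1.5.0-p3, and the genome build was GRCh38; their roles are not given. The deposited FPKM values follow from the deposited counts, the gene length and a library size: for counts over 100 they agreed within a relative error of 1.09e-08. The protocols give no step that marks strand.

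The counts of all genes were tested with edgeR 4.0.16 (R 4.3.3): filterByExpr with a minimum count of 10 and a total of 15, TMM scaling, and quasi-likelihood tests in 1 model of 12 libraries and 4 groups (8 residual degrees of freedom). P-values were adjusted by Benjamini-Hochberg over 16218 genes, and a gene was called at an adjusted p below 0.05. Errors of log2 fold changes are standard errors, errors of levels are SD over 3 libraries, and CPM were computed on TMM-scaled library sizes. TPM were computed by scaling the FPKM of each library to the same sum. Replicate numbers were not used as pairs in these tests. Alternatives were other scalings and filters, only the groups compared, a replicate block, removal of a GC and length trend, DESeq2 1.42.0, limma 3.58.1 on log2(FPKM + 1) or log2(FPKM + 0.1), and each library left out. In simulated counts of 16218 genes, 200 were changed by 1 on the log2 scale in KHM-5M with GDC-0994. Of these, 98% were called in the test of GDC-0994 over DMSO in KHM-5M, and 3.45% of calls were false. The simulation had the same relative spread for every gene, no GC trend, no outlying library and no smaller changes. Its rates therefore do not describe the reported calls.

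The members and the lists of further genes were chosen with earlier results of these data known. Values in every library are given for the MiT/TFE factors and for up to 2 called members with the largest rise and 2 with the largest fall per class and comparison; the same numbers of further genes are named per list, among those averaging 1 CPM or more in either group. ULK1, CTSD and members described again in the other line were added after their values were seen. Some items that these rules would name are not reported here.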

Additional observations from a re-analysis of the deposited data

Results flagged for a closer look

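For 24 members the effect of GDC-0994 differed between the lines by the interaction term of edgeR's quasi-likelihood model, which is what brought them here. Each value is the log2 fold change in KHM-5M minus that in TTA-1. A greater effect is thus a more positive one and a smaller effect a more negative one, whatever the size of the change. The adjusted p-values of this edgeR test ranged from 6.50e-08 for SQSTM1 to 0.0472 for GUSB. With 3 libraries a group, single member values were not tested for a library far from the others.

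Among hydrolases and their helpers the effect was greater in KHM-5M for NEU1 (1.04), PSAP (0.96), CTSD (0.93), HEXA (0.81), NPC2 (0.76), GAA (0.69), CTSA (0.66), NAGLU (0.63), ASAH1 (0.55), SGSH (0.51) and GLB1 (0.36), and smaller for GLA (-0.73) and GUSB (-0.29). The log2 fold change of NPC2 was 0.16 in KHM-5M and -0.60 in TTA-1, and that of CTSD 0.47 and -0.46. In the same order GLA had -0.61 and 0.12, and GUSB -0.46 and -0.17. LAMP2 (0.48) was the 1 membrane protein. The pump genes were ATP6AP1 (0.69), ATP6V1A (0.57), ATP6V0E1 (0.41) and ATP6V0D1 (0.34). TFEB (1.36) was the 1 transcription factor. The autophagy genes were SQSTM1 (1.03), ULK1 (0.91), GABARAPL1 (0.84) and WIPI1 (0.48), with ATG16L1 (-0.41) in the other direction.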

How the results depend on the processing

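In KHM-5M, 21 of the 30 member calls held under each alternative run, the 1 call in TTA-1 did so, and so did 17 of 24 calls of the difference and 28 of 32 between the lines. Members that rose in KHM-5M with GDC-0994 numbered 22 to 28 across settings and 21 to 26 with a library left out. Those that fell numbered 5 to 7 and 4 to 7. All genes called numbered 6816 to 8999 and 7018 to 7897, against 8069. The 28 came with upper quartile scaling (4716 of 16218 genes rose, 3576 fell, median log2 fold change 0.08) and with the GC and length trend removed (4413 and 4586). The 22 came with no filter (4211 and 3974 of 32513). The main fit had 3991 and 4078.

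The TTA-1 counts moved most. With GDC-0994, 1 member rose under the stricter filter, with the GC and length trend removed, in DESeq2 and in limma on log2(FPKM + 1) or log2(FPKM + 0.1) with a filter. Members that fell in TTA-1 numbered 2 with DESeq2 size factors and with the replicate block, and 3 with no filter, the GC and length trend removed, or DESeq2. Over all genes 1206 were called in TTA-1 with no filter, 206 with only the groups compared, 1037 with the trend removed, 873 in DESeq2 and 341 in limma on log2(FPKM + 1) with no filter, against 556. With a library left out, 0 to 5 members rose, 1 to 7 fell and 259 to 2620 genes were called in TTA-1, the upper ends all without TTA-1 DMSO replicate 2; the cause was not tested. Members with a more negative effect in KHM-5M than in TTA-1 numbered 1 with upper quartile scaling or no filter and 5 with the trend removed. They numbered 1 to 3 with a library left out. Of all genes, 2208 of 16218 were more negative with upper quartile scaling, 2338 of 32513 with no filter and 3224 of 16218 with the trend removed. The main fit had 2532 of 16218.

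Removing the GC and length trend also moved the median member difference between the lines under DMSO to -0.46, against -0.18, moved NAGLU to -0.74 (called), CTSD to -1.11, GAA to -1.06, SGSH to -1.21, ATP6V1C1 to -0.20 and ULK1 to 0.60, and turned ASAH1 to 0.34 (edgeR, higher in KHM-5M), against -0.08. With only protein-coding genes in the TPM sum the hydrolase means were 3592, 2619.9, 2619 and 2668 TPM in KHM-5M with GDC-0994, KHM-5M with DMSO, TTA-1 with GDC-0994 and TTA-1 with DMSO. In that order the membrane means were 1322, 1236, 923 and 905 TPM and the autophagy means 764.6, 491.6, 1266 and 1218 TPM. The pump means were 799.6, 561 and 1013 TPM and the MiT/TFE means 75.6, 72.8 and 96.0 TPM in the first 3 of these groups. Such sums rise because fewer genes share the fixed total.

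Correlations of deviations ranged from -0.07 to 0.16 for libraries with equal replicate numbers and from -0.24 to 0.25 for unequal ones. With 3 libraries a group, these values cannot show whether replicate numbers mark pairs. With the replicate block 23 members rose and 5 fell in KHM-5M, and 0 rose and 2 fell in TTA-1. In that fit 20 differences were greater and 2 smaller, and 11 members were higher and 21 lower in KHM-5M DMSO. Of all 16218 genes, the counts in the same order were 3873 and 3976, 154 and 375, 1834 and 2391, and 6445 and 5974. What the depth of 14952970 to 18389915 counts limits was not tested.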

Other observations

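Of the 136 further pathway genes tested outside the 42 members, 47 had a greater (more positive) effect of GDC-0994 in KHM-5M than in TTA-1. A smaller (more negative) effect was called for 8 (edgeR interaction). Over all genes 12.3% were greater and 15.6% smaller. The lists were chosen with earlier results of these data known, so these counts are descriptive. Among 33 further hydrolases 18 were greater and 2 smaller, and among 41 further autophagy genes 15 were greater and 1 smaller. Under DMSO 49 of the 136 were higher in KHM-5M and 63 lower, against 39.6% and 36.8% of all genes, 76.5% in all. Of the further hydrolases 21 were higher and 11 lower, and of the further autophagy genes 10 were higher and 23 lower. In promoters, CACGTG was present in 20.5% and TCACGTGA in 8.55% of the 117 further pathway genes with a RefSeq entry, against 12.5% and 2.17% of the tested genes.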
